A study of Mus musculus with 3 samples.

Results

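Myocardin, SRF and the MEF2 factors form one of the core transcriptional circuits of heart muscle, and the FOG2-bound sites at 7 of its genes are described here. The genes are Myocd, Srf, Mef2a, Mef2c and Mef2d, together with Smyd1 and Hopx, which act with the same factors. Their sites were taken from a list of 6166 peaks, as those whose summit lay nearest to the body of one of these genes among 21631 protein-coding genes, and at most 100 kb away. In all, 18 of the 6166 peaks met this rule, at 6 of the 7 genes.

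The tissue was heart ventricle of mouse embryos at E12.5, counted in days of gestation. FOG2 chromatin was recovered in 2 libraries, with 1 input library as control. Per the labels' protocols, it was pulled down on streptavidin beads, and all tissue carried the Fog2 flbio/flbio and Rosa26 BirA/BirA alleles, which give a tagged FOG2 and the biotin ligase that marks it. Other label fields give the genotype as WT and the antibody as FOG2. These differ from the protocol, which is followed here. The deposited peak names also hold FLAG. Each biological replicate pooled about 20 ventricles with all their cell types, expression was not measured, and there was no pulldown from tissue without tagged FOG2.

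FOG2 is the zinc finger cofactor encoded by Zfpm2 and binds GATA factors, GATA4 among them in the heart. Myocardin is a coactivator that binds SRF, and SRF binds the CArG box in genes of the contractile apparatus and cytoskeleton. MEF2 proteins bind an A/T-rich site in muscle genes and are held in check by class IIa histone deacetylases. SMYD1 is a muscle histone methyltransferase needed for growth of the ventricles in the mouse, and HOPX is a small homeodomain protein that does not bind DNA and acts on SRF.

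FOG2 summits were assigned to Myocd, Srf, Mef2a, Mef2c, Smyd1 and Hopx, and to Mef2d none. These 6 of 7 genes make 85.7%, against 13.6% of all protein-coding genes with at least 1 summit. Myocd alone had 8 summits, or 44.4% of the 18, Mef2a had 4, Mef2c and Hopx had 2 each, and Srf and Smyd1 had 1 each. The genes were chosen with earlier results of these data known, so the counts are a description and carry no test. The replicates were pooled before peaks were called, so no value below has a spread between replicates, and summits at the same gene are not independent replicates of it.

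**Figure D1:**
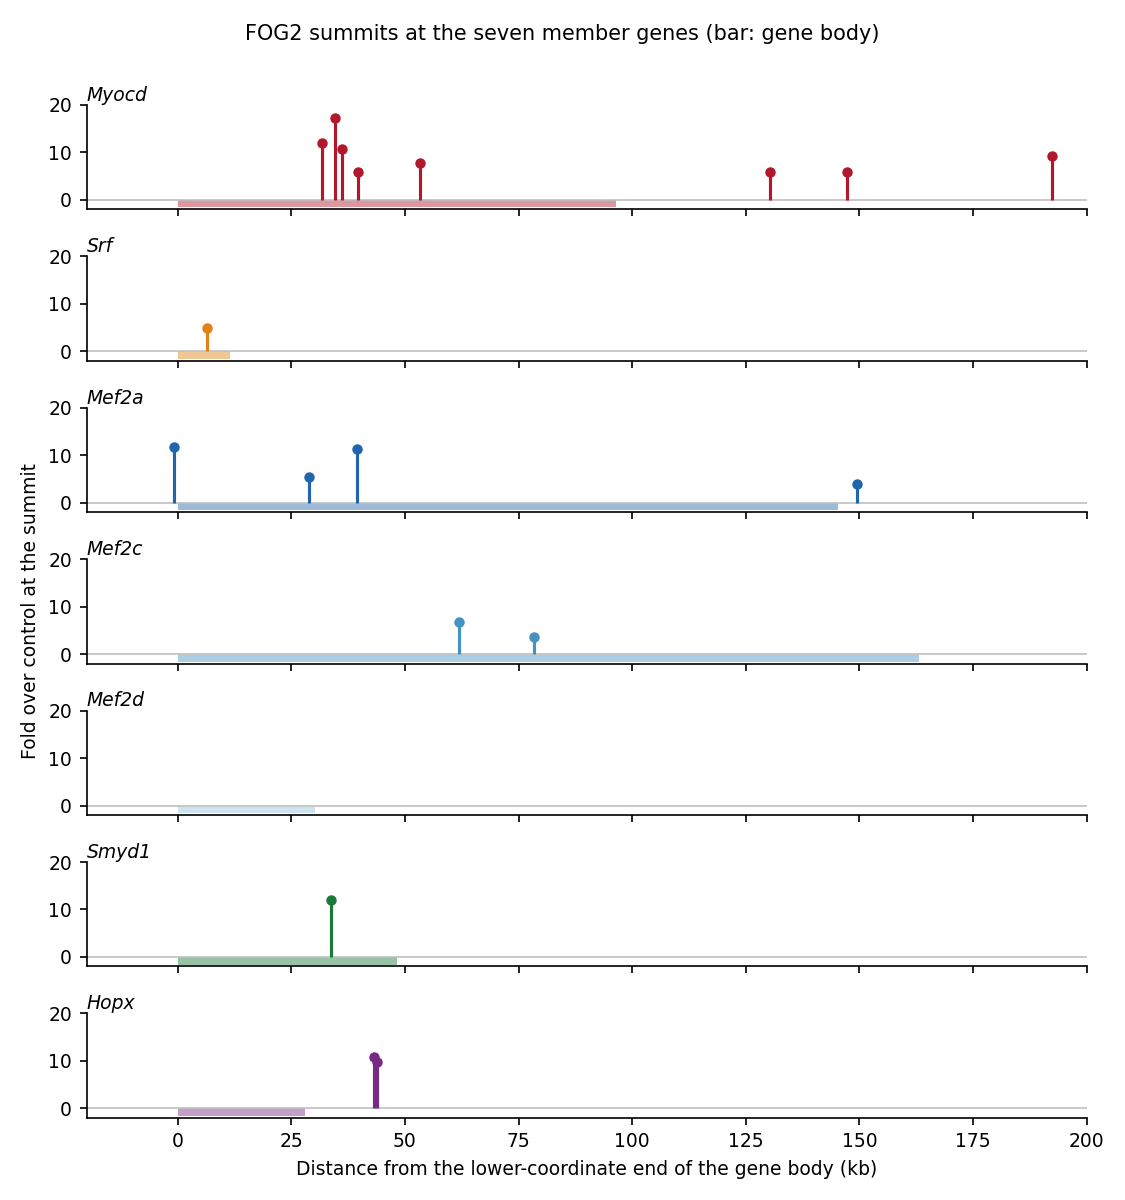
Position and strength of the FOG2 summits at the 7 genes, drawn to the same scale. The horizontal axis is the distance in kb from the lower-coordinate end of the gene body (shaded bar), and each stem is a summit with its fold over control. Myocd carries 5 stems inside its body and 3 beyond its far end, both Hopx stems stand outside the gene, and Mef2d has none.

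A long or isolated gene collects more summits than a short one in a crowded region, so each count was set beside the gene's territory, the stretch of genome nearer to that gene than to any other within 100 kb. Myocd (territory 201 kb), Mef2a (215 kb) and Mef2c (364 kb) lay in the decile of largest territory, in which 53.1% of genes had a summit. Hopx (86 kb) and Mef2d (76 kb) lay in a decile with 12.1%, Smyd1 (58 kb) in one with 8.09%, and Srf (15 kb) in one with 1.8%. The absence of a summit at Mef2d was therefore what most genes of its territory showed, while a summit at Srf was uncommon for its territory. The average density over all protein-coding genes was 0.251 summits per 100 kb of territory, at which Myocd would hold 0.504 summits, Mef2a 0.539, Mef2c 0.913 and Srf 0.0376.

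Myocd, which encodes myocardin, was among the genes with the most summits in the genome. Only 23 protein-coding genes (0.106%) had 8 or more. In summits per 100 kb of territory, Myocd had rank 3 of the 23, with 3.98. The genes ahead of it, named after their values were seen, were Jup, the plakoglobin gene (19.5), and Mical2, which encodes an actin-modifying enzyme known to activate SRF signalling (4.73). The remaining 20 genes had territories larger than that of Myocd. The ranking leaves out genes with fewer than 8 summits. Some of these were denser, Srf among them, with 6.67 from 1 summit in 15 kb. These ranks rest on the count of 8, which was 5 within 10 or 20 kb of the gene, with noncoding genes in the assignment, or in the stronger 50% of peaks.

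**Figure D2:**
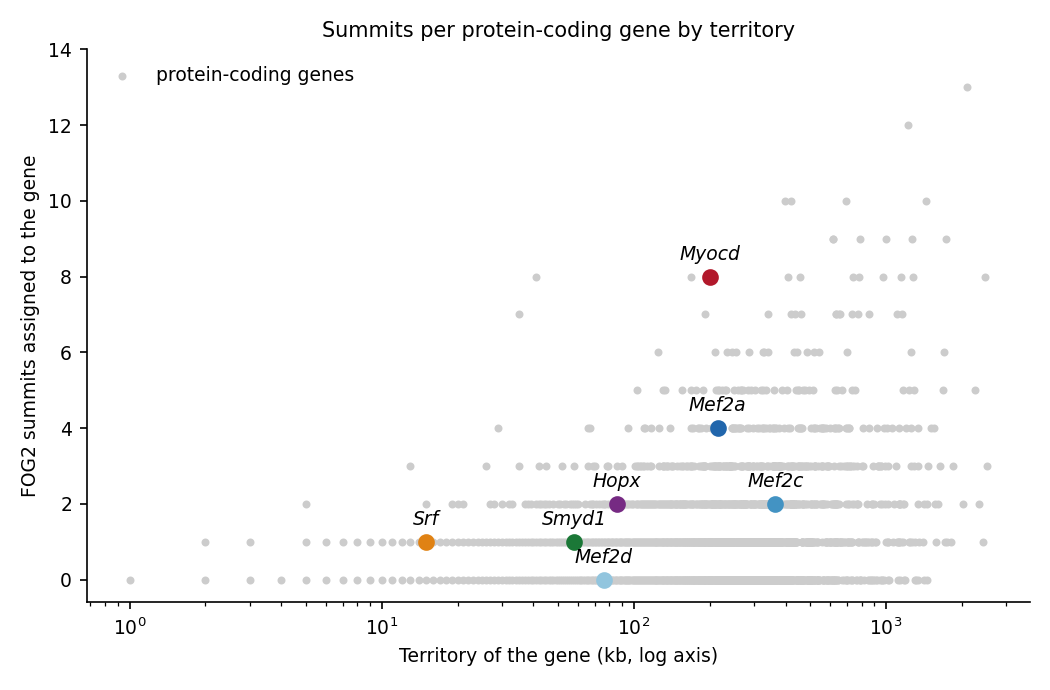
Number of FOG2 summits assigned to each protein-coding gene (vertical axis) against its territory in kb (horizontal log axis). Grey points are combinations of territory and count that occur among the 21631 genes, and coloured points are the 7 described genes. Myocd stands at 8 summits with a territory of 201 kb, while Mef2d stands at 0 with 76 kb.

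The strongest summits at Myocd formed a tight group inside the gene body, which spans chromosome 11 from 65173608 to 65269989 on mm10. The first of the group was 12.03-fold over control, in the peak from 65205212 to 65205664, with 33 pulldown fragments at the summit (95% Poisson interval 22.7 to 46.3). The second, 2.79 kb further, was 17.3-fold with 36 fragments (25.2 to 49.8), in the peak from 65208071 to 65208441, and was the strongest at any of the 7 genes. It ranked 263 of 6166 by fold.

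The third Myocd summit lay a further 1.53 kb along, at 10.8-fold, and also rested on 36 fragments (25.2 to 49.8). Its lower fold came from its control level, 2.43 against 1.14 at the second summit, and 2.43 was the worth of 4 input reads over the summit. These 3 summits lay within 4.32 kb. Fragments and control levels here and below were recovered from the authors' fold and p-value, and intervals cover counting error only.

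Further along in coordinate, Myocd had 2 weaker summits within its body, one of 5.81-fold with 11 fragments (5.49 to 19.7) and one of 7.68-fold with 12 fragments (6.20 to 21.0). All 5 inside summits lay within 21.5 kb of the 96.4 kb gene body. The intervals of the first 3 summits lay above those of these weaker 2, so the step between them was larger than counting error.

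Beyond the higher-coordinate end of Myocd came 3 more summits, at 34.0, 50.9 and 96.1 kb from the gene body. They were 5.81-fold with 26 fragments (17.0 to 38.1), 5.90-fold with 11 fragments (5.49 to 19.7) and 9.32-fold with 31 fragments (21.1 to 44.0). The first of these had the highest control level at any of the 18 summits, 3.65, worth 6 input reads, so its 26 fragments gave a low fold. All 3 were nearer to the long noncoding RNA gene Gm30586, at 15.4, 32.3 and 77.5 kb, than to Myocd, and with noncoding genes in the assignment Myocd kept the 5 inside summits. The summit 96.1 kb away is the one just inside the 100 kb limit. The next summit on that side, 152.2 kb from Myocd and 6.94-fold, lies well beyond the limit.

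Srf, which encodes the DNA-binding partner of myocardin, had a single weak summit inside the gene. The peak lay at 46553297 to 46553506 on chromosome 17, within the gene body of 46546838 to 46558267, and was 4.96-fold over control. It rested on 13 fragments (6.92 to 22.2), with a control level of 1.83, worth 3 input reads. By fold it ranked 5295 of 6166, and its −log10 q of 4.52 fell short of the stricter threshold of 5. The summit was 2.76 kb downstream of the annotated start site, the shortest distance from a start site among the genes with an entry in the promoter table, and the nearest summit to any side beyond it was 544 kb away.

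No peak overlapped a promoter window of these genes. RefSeq windows (GRCm38.p6, the mm10 assembly, 250 bases before to 50 bases after a start site) were matched for 6 of the 7 genes, with 9 windows in all, and Myocd was not matched. Over all windows, 0.420% of 32851 overlapped a peak, so 0 of 9 is what that share leads to. The promoters printed here are those in which a site of this same circuit was found, a CArG box or a MEF2 site, so that the sites can be set against the places where FOG2 summits lay. Bases run 5′ to 3′ along the gene's strand, and capitals mark the matches.

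The Srf window, chr17:46556113-46556412 on the minus strand, held 2 CArG boxes, CCATATAAGG beginning 82 bases and CCATAAAAGG beginning 62 bases before the start site.
Srf promoter: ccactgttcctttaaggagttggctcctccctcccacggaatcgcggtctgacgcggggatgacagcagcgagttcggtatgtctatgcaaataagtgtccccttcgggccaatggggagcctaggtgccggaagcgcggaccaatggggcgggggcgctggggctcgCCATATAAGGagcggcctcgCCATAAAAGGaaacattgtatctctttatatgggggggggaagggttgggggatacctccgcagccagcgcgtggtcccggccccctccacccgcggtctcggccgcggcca
The Hopx window, chr5:77115074-77115373 on the minus strand, held a CArG box, CCAAATAAGG, beginning 83 bases before the start site.
Hopx promoter: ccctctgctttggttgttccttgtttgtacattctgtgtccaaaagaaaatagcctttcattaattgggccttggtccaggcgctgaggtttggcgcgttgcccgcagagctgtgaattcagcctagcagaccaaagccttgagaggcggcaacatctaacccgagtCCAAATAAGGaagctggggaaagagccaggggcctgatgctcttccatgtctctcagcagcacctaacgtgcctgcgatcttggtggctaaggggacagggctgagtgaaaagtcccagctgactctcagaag
The Mef2a window, chr7:67372809-67373108 on the minus strand, held a MEF2 site, CTAAAAATAG, that begins 2 bases before the start site and spans it.
Mef2a promoter: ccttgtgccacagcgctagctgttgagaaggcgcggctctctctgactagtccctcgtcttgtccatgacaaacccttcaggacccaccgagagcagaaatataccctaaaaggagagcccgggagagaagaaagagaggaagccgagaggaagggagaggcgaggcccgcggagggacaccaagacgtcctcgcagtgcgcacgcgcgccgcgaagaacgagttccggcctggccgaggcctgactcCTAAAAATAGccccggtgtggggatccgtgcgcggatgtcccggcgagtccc

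CArG boxes were thus found in 2 of the 9 windows, against 1.63% of all 32851, and a MEF2 site in 1 of 9, against 1.86%. The GATA core AGATAA was in none of the 9 and in 11.2% of all windows, and the T-box core GGTGTGA in none and in 3.98%. An E-box, CANNTG, was in 4 of the 9 and in 72.3% of all. All motifs were searched on both strands, and none of the matches printed overlaps another of these motifs. A match is a stretch of letters and not a bound site, and the sequence under the FOG2 peaks was not analysed here. The summit closest to each of these start sites lay 2.76 kb downstream at Srf, 15.0 kb upstream at Hopx and 7.70 kb upstream at Mef2a.

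Among the MEF2 genes, Mef2a had the most summits. Its gene body spans chromosome 7 from 67231163 to 67376456, and its 4 summits gave it a place among the 0.892% of all protein-coding genes with at least 4. These were 193 genes, most of larger territory than Mef2a, with 34 at 215 kb or less, Mef2a included. The share among genes of like territory is not given here. MEF2A is the family member that predominates in the adult heart of the mouse. The strongest Mef2a summit, 11.7-fold with 19 fragments (11.4 to 29.7), lay 0.70 kb beyond the end of the gene that is opposite to its start site, in the peak from 67230316 to 67230575.

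The Mef2a summit with most fragments lay within the body, at 67270446 to 67270735. It was 11.3-fold with 31 fragments (21.1 to 44.0), over a control level of 1.83, worth 3 input reads. A weaker inside summit, 10.5 kb away, was 5.49-fold with 13 fragments (6.92 to 22.2). The fourth, 4.10 kb outside the gene body and 7.70 kb upstream of the annotated start site, was 3.89-fold with 10 fragments (4.80 to 18.4) and ranked 6068 of 6166. By fold the 4 summits fell into a pair near 11-fold and a pair of at most 5.49-fold, and the interval of the 31 fragments lay above that of the 10 alone, though it overlapped those of the 13 and the 19.

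Mef2c, the family member required for looping of the heart tube in the mouse, had 2 summits, both inside its body on chromosome 13, from 83504017 to 83667079. The stronger, at 83565735 to 83565969, was 6.81-fold with 22 fragments (13.8 to 33.3). It lay 7.76 kb upstream of the third of the start sites listed for Mef2c in the promoter table and 61.8 kb from the first. The weaker, 16.7 kb on, was 3.61-fold with 7 fragments (2.81 to 14.4) and a −log10 q of 1.37, and ranked 6122 of 6166, the lowest of the 18. The territory of Mef2c was the largest of the 7 genes, and its density of 0.549 summits per 100 kb was the lowest among the 6 with a summit.

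Mef2d, known for its part in stress remodelling of the adult mouse heart, had no summit within 100 kb of its body on chromosome 3 (88141941 to 88172091). The nearest one, 10.1-fold over control, was 585 kb distant and belonged to Etv3l by the same rule. A gene without a listed peak is not shown to be unbound at this depth. With 4, 2 and 0 summits, Mef2a, Mef2c and Mef2d differed in count. At a fold of at least 5, or a −log10 q of at least 5, the counts were 3, 1 and 0. In the stronger 50% of peaks they were 2, 1 and 0. The territories of these 3 genes differed as well, and the difference in counts was not tested.

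Smyd1 had a single but strong summit. It lay inside the gene body on chromosome 6 (71213940 to 71262281), 14.5 kb downstream of the annotated start site, in a peak from 71247552 to 71248125. It was 11.97-fold with 20 fragments (12.2 to 30.9), ranked 639 of 6166, and had a control level of 0.755, near the lowest level in the list, 0.588. The peak was 574 bp wide, where the median of the list was 251 bp.

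Hopx had a pair of summits outside the gene. They lay 0.712 kb apart, 15.0 and 15.7 kb upstream of its start site on chromosome 5, at 10.8-fold with 23 fragments (14.6 to 34.5) and 9.81-fold with 22 fragments (13.8 to 33.3). Their intervals overlapped almost wholly, so no order between them was detectable at this depth. Chromatin fragments were 300 to 800 bp long per the labels' protocols, a length like this spacing, so the 2 summits need not be separate sites. With summits within 1 kb counted as 1, Hopx had 1. The peaks spanned 77129937 to 77130257 and 77130619 to 77131134, and the gene body 77086986 to 77115123. Both summits were nearer to Chaer1 than to Hopx, at 6.53 and 5.82 kb. Chaer1 is a long noncoding RNA gene known in the mouse for a part in cardiac hypertrophy. With noncoding genes in the assignment, Hopx kept 0 summits, and the peak list does not show which of these genes the sites act on.

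**Figure D3:**
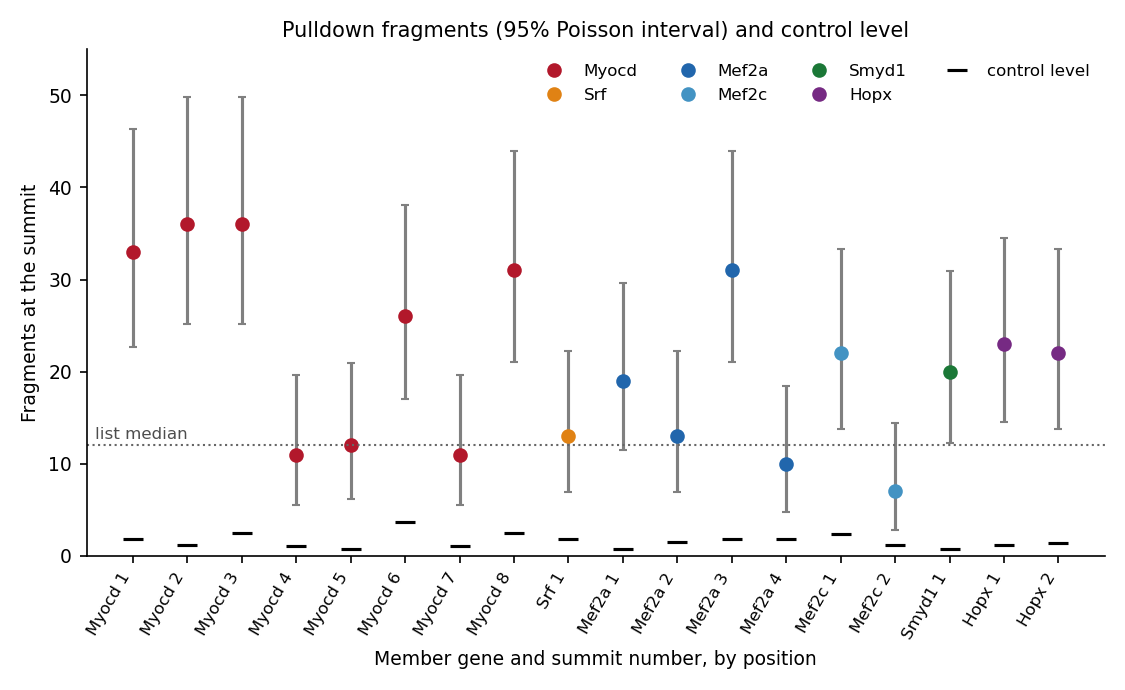
Pulldown fragments at each of the 18 summits (points, with exact 95% Poisson intervals) and the control level at the same place (black dashes), in genomic order within each gene. The dotted line is the median of the whole list, 12 fragments. The first 3 Myocd summits hold 33, 36 and 36 fragments, and the second Mef2c summit holds 7.

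The 18 summits had a median fold of 8.50, against 6.39 for the other 6148 summits. The 95% interval of the median at the 18 summits, from the ranks of the 18 folds and treating them as independent, was 5.81 to 11.3 and contained 6.39. By fold, 11 of 18 lay above the median of the whole list. A fold of at least 10 was reached by 7 of 18 (38.9%), against 16.9% of the whole list, at 4 genes (Myocd, Mef2a, Smyd1 and Hopx). At least 20 fragments were found at 10 of 18 (55.6%), against 16.6% of the list. The median was 21.0 fragments at the 18 summits and 12 at the other 6148.

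With Myocd left out, the 10 summits of the other 5 genes had a median fold of 8.31 and a median of 19.5 fragments. The 8 at Myocd had 8.50 and 28.5. The 8.31 is the middle of a gap between 6.81-fold at Mef2c and 9.81-fold at Hopx. It thus depends on the Hopx pair, whose summits lie 0.712 kb apart and nearer to Chaer1. The control level was also higher, with a median of 1.45 at the 18 summits and 0.828 at the other 6148, and its part in the fragment counts was not tested.

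**Figure D4:**
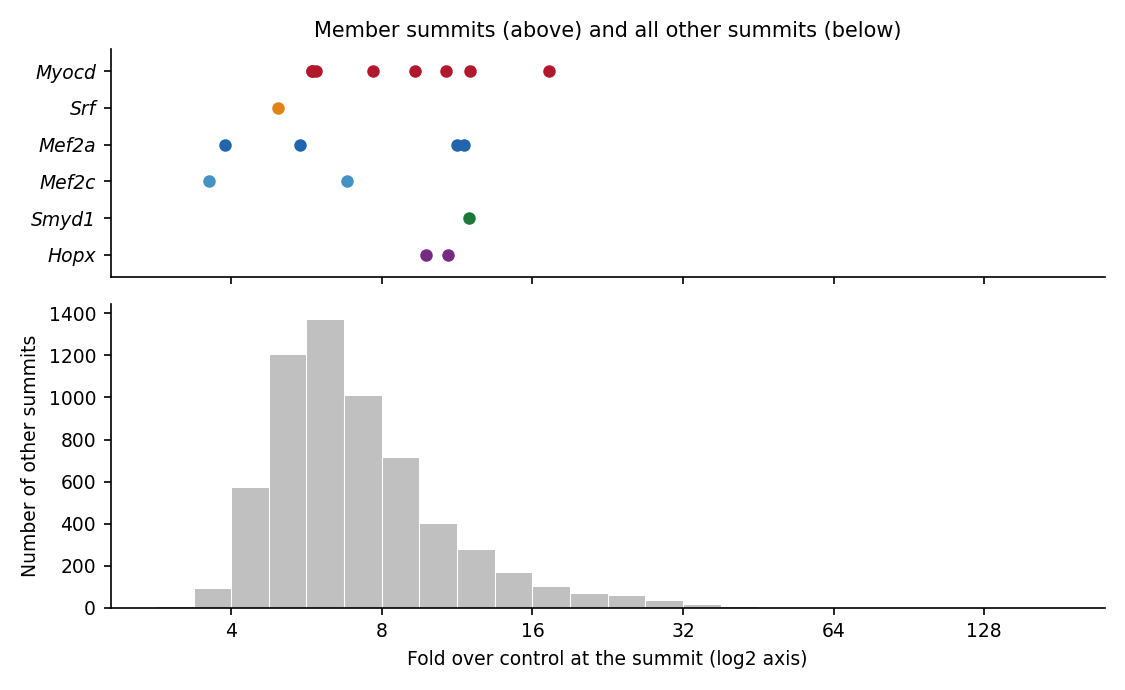
Fold over control at the 18 summits by gene (upper part, 1 point per summit) and the number of the other 6148 summits in each fold class (lower part), on a shared log2 axis. The points run between 3.61 at Mef2c and 17.3 at Myocd. The tallest classes of the other summits stand around their median of 6.39.

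In place, 11 of the 18 summits (61.1%) were inside the gene body, against 45.9% of the whole list. The whole list, unlike the 18, includes 1464 summits with no protein-coding gene within 100 kb. These shares are therefore not on a like base, and no excess is read from them. Only Hopx had all its summits outside. Another summit within 10 kb was found for 6 of 18 (33.3%), against 18.6% of the list. These were 4 of the inside summits of Myocd and the Hopx pair. Peaks at least 500 bp wide numbered 4 of 18 (22.2%), against 9.54%, and were at Myocd (581 and 534 bp), Smyd1 (574 bp) and Hopx (516 bp).

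Summits were also assigned to genes of the wider SRF and MEF2 pathway. Of 47 genes in 7 lists, all matched, 16 (34.0%) had a summit, against 13.6% of all protein-coding genes. These lists were also chosen with earlier results known and were not tested. Many of the 47 genes are active in heart muscle, and lists matched on activity or on territory were not compared. Territory matters here, since the share of genes with a summit ran from 1.8% to 53.1% over the territory deciles given above.

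SRF cofactors had the highest share, 5 of 7. They were led by Nkx2-5, a cardiac homeodomain factor (22.1-fold, 44 fragments, 31.97 to 59.1, 23.9 kb outside the gene), and Fhl2, a LIM protein that binds SRF (12.4-fold, 23 fragments, 49.5 kb outside). Gata4 (7.66-fold) and the muscle LIM protein gene Csrp3 (7.28-fold, 4 summits, the strongest 5.62 kb outside the gene) had summits too. Csrp2 had a single weak one, 4.25-fold with 11 fragments, 45.1 kb outside the gene and ranked 5912 of 6166. Fhl1 and Csrp1 had none. MEF2 targets in muscle followed with 4 of 8, namely the myoglobin gene Mb (11.3-fold, 4 summits), Klhl31 (7.58-fold), and the M-band genes Myom2 (6.32-fold) and Myom1 (3.54-fold). Ckm, Xirp1, Xirp2 and Jun had none.

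Genes with CArG boxes in the contractile and cytoskeletal list had summits at 4 of 15. They were the smooth muscle myosin gene Myh11 (9.92-fold), the myosin light chain gene Myl9 (8.22-fold), the cardiac actin gene Actc1 (7.57-fold, 25 fragments, 1.40 kb outside the gene) and the vinculin gene Vcl (5.76-fold). The other actin genes of the list, Acta1, Acta2 and Actg2, had none, and neither had the smooth muscle genes Tagln, Cnn1, Lmod1 and Smtn, nor Des, Cald1, Tpm1 and Nppa.

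Of the coactivators and ternary complex factors of SRF, 1 of 5 had a summit, the myocardin-related gene Mrtfb (6.73-fold), and Mrtfa, Elk1, Elk3 and Elk4 had none. Among Mef2b and the class IIa deacetylases, 2 of 5 had a summit, Hdac4 (8.86-fold) and Hdac9 (7.40-fold), whose territories of 407 and 947 kb are in the largest decile. Mrtfb, at 274 kb, and Mrtfa, without a summit at 201 kb, are in that decile too. The 2 partners of SMYD1 and HOPX, Naca and Hdac2, had none. Neither had any of the 5 immediate early targets of SRF, Fos, Fosb, Egr1, Egr2 and Ier2. At the background of 13.6%, a list of 5 genes would often hold 0 with a summit.

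**Figure D5:**
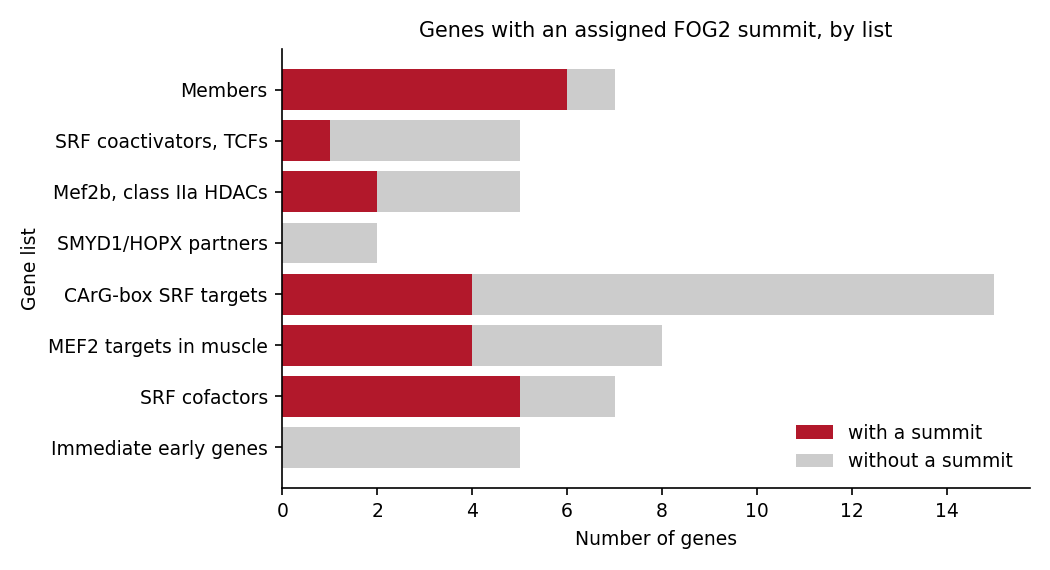
Number of genes with (red) and without (grey) an assigned FOG2 summit among the 7 described genes (Members, top bar) and in each of the 7 pathway lists. The top bar has 6 of 7 genes in red, the list of SRF cofactors has 5 of 7, and the immediate early list has 0 of 5.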

How the data were processed

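The data were a single peak list that the authors deposited for both FOG2 pulldown libraries pooled, with blacklisted regions removed per the peak and file names. Bowtie2 2.3.2, SAMtools 1.5, Picard, MACS2 2.1.1 and the build mm10 were used per the submitters' processing notes, which name no settings. The deposited fold compares pulldown with control at the summit as a linear ratio. The deposited −log10 p and −log10 q are those of the peak caller. The deposited display score was not used further. Library totals are not used here, so depth is known only at summits.

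Summits were assigned with Python 3.11.15 to the nearest RefSeq protein-coding gene body (GRCm38.p6) within 100 kb. A summit inside overlapping genes counted for each, which touched none of the 7 genes. Territory was measured on a 1 kb grid. Fragments and control level were solved from fold and −log10 p as a Poisson tail with 1 added to both sides of the fold. A whole number matched within 0.001 for 100% of peaks, and no second whole number did so at the 18 summits. A control level was called worth whole input reads when it was a multiple of 0.608 within 0.0002 per read. The recovery, assignment and territory steps were tested on simulated data.

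All 7 genes and every pathway gene with a summit are named. Members and lists were chosen with earlier results of these data known. No test between samples was possible, and none was made over peaks or genes. The closing section gives the effect of other peak thresholds, distances and gene sets.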

Additional observations from a re-analysis of the deposited data

How the results depend on the processing

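With 8 summits as reported, Myocd had 5 within a limit of 10 kb, within 20 kb, with genes of every biotype, and in the stronger 50% of peaks. It had 8 or 9 in the other alternatives run, except 6 within 50 kb. Summits at the 7 genes numbered 11 in the stronger 50% of peaks, and between 13 and 20 in the other alternatives. Between 5 and 6 of the 7 genes had a summit throughout. Srf was lost at a −log10 q of at least 5, at a fold of at least 5 and in the stronger 50%, and Hopx was lost within 10 kb and with genes of every biotype. Pathway genes with a summit numbered 25 when every gene within 100 kb counted. The share of protein-coding genes with a summit was then 33.3%. It was 10.03% at a −log10 q of at least 5, 11.8% at a fold of at least 5, 8.01% in the stronger 50%, 10.5% with every biotype, 10.01%, 10.9% and 12.48% within 10, 20 and 50 kb, and 13.0% by gene ends. The median fold at the 7 genes was between 8.50 and 10.8. Values above 8.50 came from cuts on fold or −log10 q, which drop weaker peaks. They are not to be set against the uncut list median of 6.39. The median summit of the 7 genes stood above 73.7% of the list by fold, 79.1% by −log10 q and 85.1% by fragments. For fold, the 95% interval of this percentage, treating the summits as independent, was 36.6% to 87.6% and contained 50%.

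No paired analysis was possible because the replicates were pooled before peaks were called. No replicate was left out for the same reason. At 9 of the 18 summits the control level was worth between 2 and 6 input reads over the summit. The nearest gene need not be the one that a site regulates. The sequence under the peaks was not analysed here.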

Other observations

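Some summits near these genes were assigned to a neighbour. A summit 30.5 kb from Myocd, at 10.2-fold with 16 fragments, lay nearer to Arhgap44, and one 82.1 kb from Smyd1, at 4.97-fold with 7 fragments, lay nearer to Cd8b1. Adamts17 took 3 summits between 159 and 199.7 kb from Mef2a, the strongest at 13.0-fold with 21 fragments. No further summit lay within 200 kb of Srf, Mef2c, Mef2d or Hopx.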
